A study of Mus musculus with 12 samples.

Results

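Kidneys of C57BL/6 mice, the wild-type arm of a study of MRL/lpr lupus mice, were compared at 17 and at 8 weeks of age. The members are the 6 C57BL/6 libraries among 12 RNA-seq libraries of the series, 3 from each age, chosen by their labelled strain and age. The C57BL/6 mice carry no allele or agent in the labels. The MRL/lpr mice, labelled MRL/MpJ-Fas<lpr>/J, carry the lpr allele of Fas, were sampled at the same 2 ages with 3 libraries each, and enter only where the age difference is set against theirs. Nothing in the labels tells whether the replicates came from different animals, and the p-values measure only the spread among these libraries, which may be technical. They name neither sex, nor time of day, nor day of collection, so age cannot be told apart from a difference in any of these between the groups. Replicate 2 of 17 weeks stood apart from its partners, and each result is therefore given with all 6 libraries and with the 5 that remain without it.

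A mouse kidney at 8 weeks has finished forming nephrons, and the interval to 17 weeks covers young adulthood. The proximal tubule reabsorbs most of the filtrate and makes the active form of vitamin D, and the later segments adjust salt, magnesium and water. Resident macrophages and dendritic cells lie between the tubules and present antigen on MHC class II molecules. Many kidney genes follow the circadian clock, a feedback loop in which CLOCK and BMAL1 drive the Per and Cry genes whose products hold them back, while REV-ERB receptors hold down Bmal1.

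Values are FPKM, a read density corrected for transcript length and library size, summed over the mRNAs of each gene, so that levels can be compared between genes per length. Of 19034 genes, 12388 reached 1 FPKM in at least 3 of the 6 libraries and were tested. Differences are on the log2(FPKM + 1) scale with a standard error (SE), 17 minus 8 weeks, and understate the change of genes near 1 FPKM. Adjusted p-values are from limma with Benjamini-Hochberg adjustment over all genes tested, and a gene rose or fell where this was under 0.05. The number of reads is not given, so no counting error is attached to a value.

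The first principal component of the 6 libraries took 69.5% of the variance and set replicate 2 of 17 weeks, at 50.29, against the other 5 libraries, between -15.93 and -5.84. The second, with 16.1%, placed the 8-week libraries at 7.54 to 10.34 and replicates 1 and 3 of 17 weeks at -15.49 and -14.76, with replicate 2 at 3.06. In that library 13011 genes reached 1 FPKM, against 12169 to 12332 in the others. Kidney markers were present in all 6: Lrp2, the endocytic receptor megalin of the proximal tubule, lay between 98.65 and 195.05 FPKM, Umod of the loop of Henle between 2055.32 and 2700.16 and Aqp2 of the collecting duct between 118.88 and 216.99. Replicate 2 had the lowest Lrp2 and the highest Aqp2.

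With all 6 libraries 14 genes passed, 0.113% of those tested, 7 higher and 7 lower at 17 weeks (0.0565% each way). An unadjusted p under 0.05 was reached by 1704 genes. In all 14 the groups did not overlap with replicate 2 included. For H2ac19 this was fixed in advance, since it reached 1 FPKM, the level needed for testing, at 17 weeks alone. Over all genes, 13.2% were higher and 12.4% lower without overlap. The largest rise in log2 was in Cyp27b1 (chr10:127048246-127054884 in GRCm38.p6), the 1-alpha hydroxylase that makes calcitriol, the active form of vitamin D. Cyp27b1 read 2.17, 1.21 and 1.13 FPKM at 8 weeks and 11.96, 9.96 and 8.49 FPKM at 17 weeks. All 3 libraries of 17 weeks were high, and the difference was 2.17 (SE 0.19, adjusted p = 0.0356).

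Both aldo-keto reductases among the 14, Akr1c18 and Akr1c14, fell. Akr1c18 (chr13:4132615-4150646), which inactivates progesterone, went from 213.36, 167.91 and 175.61 FPKM to 50.91, 38.56 and 58.17, a difference of -1.91 (SE 0.17, adjusted p = 0.0356). Akr1c14 (chr13:4048991-4090560), a 3-alpha hydroxysteroid dehydrogenase, went from 59.38, 49.33 and 63.0 FPKM to 14.57, 12.23 and 17.64, a difference of -1.89 (SE 0.15, adjusted p = 0.0356). The Akr1c genes lie side by side and resemble each other in sequence, so how reads were split between them is uncertain. The largest fall was in Rnf24 (chr2:131298488-131352892), a RING finger gene, which read 64.03, 37.64 and 65.2 FPKM at 8 weeks and 7.3, 9.1 and 8.54 at 17 weeks (-2.57, SE 0.22, adjusted p = 0.0356). Replicate 2 of 8 weeks lay well below its partners for this gene and still far above every library of 17 weeks.

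The clock gene Cry2 rose. Cry2 (chr2:92403646-92434085), a repressor of the clock, read 6.42, 6.12 and 6.94 FPKM at 8 weeks and 11.53, 11.3 and 11.93 at 17 weeks, a difference of 0.75 (SE 0.07, adjusted p = 0.0375). A further 8 genes differed by -0.98 to 1.31. Tmem252, a membrane protein gene, was 40.0, 43.06 and 35.93 FPKM at 8 weeks and 96.88, 114.28 and 89.67 at 17 weeks. Upp1, the uridine phosphorylase of pyrimidine salvage, was 7.3, 7.7 and 8.41 FPKM and then 16.89, 16.5 and 17.57. Plekhb1, a pleckstrin homology domain gene, went from between 11.59 and 12.94 FPKM to between 20.95 and 24.92. H2ac19, a replication-type histone gene with near-identical copies, was listed at 0 in the 3 libraries of 8 weeks and at 1.42, 1.4 and 1.4 FPKM at 17 weeks.

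Of the genes that fell, Myo5a, an actin-based motor, read 18.19, 15.56 and 18.68 FPKM at 8 weeks and 8.04, 7.96 and 9.16 at 17 weeks. Itgb6, the beta subunit of an epithelial integrin that activates TGF-beta, read 26.21, 26.94 and 31.05 FPKM and then 16.22, 15.77 and 16.66. Polr3e, a subunit of RNA polymerase III, went from between 37.76 and 38.4 FPKM to between 24.3 and 26.07, and Gmpr, a guanosine monophosphate reductase, from between 54.46 and 59.45 FPKM to between 36.85 and 38.5. The calls of 13 of the 14 genes were lost when any 1 library other than replicate 2 of 17 weeks was left out, with adjusted p-values up to 0.255, while Rnf24 kept its call only without replicate 2 of 8 weeks (0.00978) or replicate 2 of 17 weeks (0.0174). With the 5 libraries, all 14 passed.

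**Figure D1:**
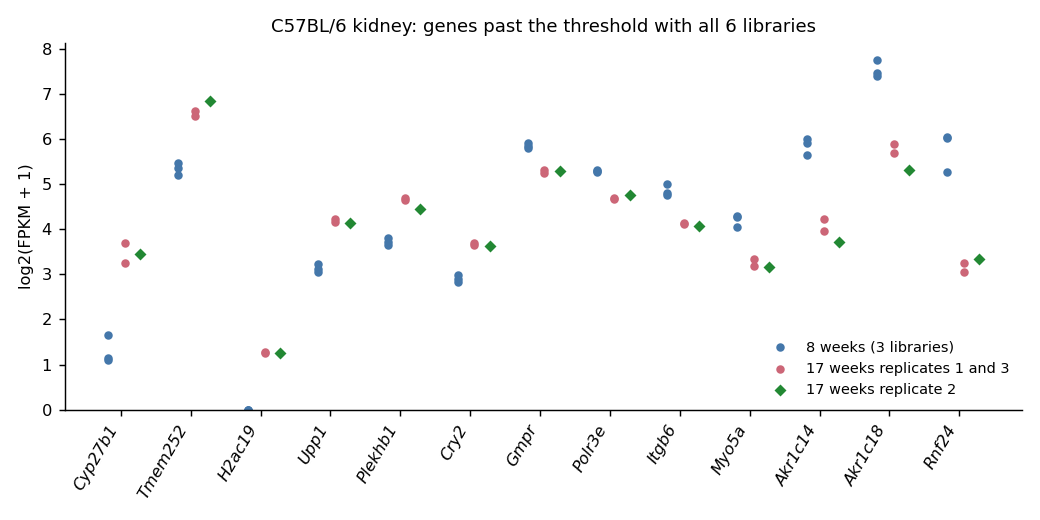
Expression of 13 of the 14 genes that passed the test with all 6 C57BL/6 libraries, as log2(FPKM + 1) on the vertical axis, with each point a library. Circles are the 3 libraries of 8 weeks and replicates 1 and 3 of 17 weeks, and the diamond is replicate 2 of 17 weeks. The diamond lies apart from 8 weeks on its partners' side in every gene shown, which for H2ac19 was fixed by the level needed for testing.

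Igf2, the fetal insulin-like growth factor, missed the threshold. Igf2 (chr7:142650768-142666816) read 2.37, 10.03 and 6.09 FPKM at 8 weeks and 83.3, 69.47 and 90.87 at 17 weeks, without overlap. The difference was 3.67 (SE 0.41, adjusted p = 0.0524) with 6 libraries and 3.78 (SE 0.60, adjusted p = 0.0522) with 5. Among the 18 tested of 19 growth factor and imprinted growth genes, Igf1r and Igfbp1 rose with 5 libraries and none fell. Of all genes 4.16% rose and 4.42% fell. Igf1r is the receptor of IGF1 and IGF2, and Igfbp1 a binding protein of both. Igf1r went from 14.48, 14.9 and 15.65 FPKM to 20.91 and 21.55 (0.47, adjusted p = 0.00432), with replicate 2 at 17.82. Igfbp1 went from 13.05, 17.96 and 16.37 FPKM to 21.92 and 24.2 (0.53, adjusted p = 0.0457), with replicate 2 at 8.79, below every other library. Without replicate 1 or 3 of 17 weeks neither passed, with adjusted p-values of up to 0.268.

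Without replicate 2 of 17 weeks, 1063 genes passed (8.58%), 515 higher (4.16%) and 548 lower (4.42%) at 17 weeks. By an unadjusted p under 0.05, 3272 genes did. The changes were mostly small: 21 of the genes that rose and 15 of those that fell moved 2-fold or more on the log2(FPKM + 1) scale. The left-out library lay above all 3 libraries of 8 weeks in 373 (72.4%) of the genes that rose, against 52.9% of all genes, and below all 3 in 388 (70.8%) of those that fell, against 28.2% of all genes. It lay on the opposite side in 96 (18.6%) and 110 (20.1%). The low-value filter, which used that library too, fixed its side for 34 of the 515 genes and 8 of the 548. Scaling changed the split: it was 682 higher and 374 lower with upper quartile scaling, and 563 and 409 with median-of-ratios scaling.

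These calls rest on 2 libraries of 17 weeks. Without replicate 1 of 17 weeks 121 of the 1063 remained, without replicate 3 there were 116, and 82 were kept in each of the 5 fits that left out 1 more library. Leaving out replicate 1 or 3 leaves a single library at 17 weeks, which is then assumed to vary like the 8-week libraries, so kept and lost describe these fits and are no measure of stability. A gene described below as kept is one of these 82. A gene described as lost missed the threshold in at least 1 of the 5 fits, and the p-value given with it is the highest of the 5. With all 4 groups of the series fitted together 392 genes passed. The low-value filter favoured some calls: 34 of the 515 genes that rose reached 1 FPKM in all 3 libraries of 17 weeks and in none of 8 weeks, and 8 of the 548 that fell did so the other way. Among the named genes these are C4b, Cd3g, Cd4, Cd79a, Clec9a, Cxcl13, H2ac19, Rhox6, Slpi, Clec7a, C3ar1, Mchr1 and Acsm3, whose calls are given as values.

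Among the 10 largest rises with 5 libraries, Jchain, Cyp27b1 and Tmprss6 led. Tmprss6 (chr15:78439667-78468648), a membrane protease that lowers hepcidin, read 2.06, 2.23 and 3.15 FPKM at 8 weeks, 12.36 and 14.88 in replicates 1 and 3 of 17 weeks and 7.58 in replicate 2. The difference was 2.08 (SE 0.14, adjusted p = 0.000908), and its call was kept. Azgp1, a secreted lipid-mobilising glycoprotein, read 3.81, 3.06 and 2.64 FPKM, then 14.02 and 16.09, and 5.82 in replicate 2 (1.95, SE 0.12, adjusted p = 0.000846, kept). Hdc, the enzyme that makes histamine, went from 14.37, 22.56 and 18.01 FPKM to 54.19 and 58.58, with 27.49 in replicate 2 (1.59, adjusted p = 0.0105). Cyp4b1, a cytochrome P450, went from 101.29, 111.55 and 72.44 FPKM to 313.89 and 294.5, with 209.67 in replicate 2 (1.69, adjusted p = 0.012). In all 4 genes replicate 2 lay between the 8-week libraries and its partners. Aldh1a1, a retinaldehyde dehydrogenase, rose by 1.25 with replicate 2 the highest at 19.03 FPKM, and Rhox6, a reproductive homeobox gene at 0.14 to 0.35 FPKM at 8 weeks, by 1.37, though it passed the filter through 17 weeks alone. Hdc, Cyp4b1 and Aldh1a1 were lost (adjusted p up to 0.107, 0.119 and 0.11), and Rhox6 was kept.

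Predicted genes left out, the largest falls after Rnf24, Akr1c14 and Akr1c18 were in Sec14l3, Nrep, H4c8 and Slc25a25. Sec14l3, a phospholipid transfer protein gene, read 21.54, 15.44 and 18.36 FPKM at 8 weeks and 5.53 and 6.43 at 17 weeks, with replicate 2 at 3.96 (-1.47, adjusted p = 0.00241, kept). H4c8, a replication-type histone H4 gene with copies of near-identical sequence, read 9.55, 11.6 and 10.79 FPKM and then 3.28 and 4.83, with replicate 2 at 4.45 (-1.22, adjusted p = 0.00429, kept). Nrep, a neuronal regeneration-related gene, read 27.88, 20.21 and 20.89 FPKM and then 8.73 and 8.37, with replicate 2 at 15.7 (-1.32, adjusted p = 0.00339, lost at up to 0.058). Slc25a25, a mitochondrial ATP-Mg and phosphate carrier, read 47.47, 41.14 and 63.79 FPKM and then 21.45 and 20.67, with replicate 2 at 26.34 (-1.21, adjusted p = 0.0239, lost at up to 0.174). Tyw3, a tRNA-modifying enzyme, fell by 1.04 on the log2 scale and was kept. Mchr1, a melanin-concentrating hormone receptor, read between 1.76 and 2.72 FPKM at 8 weeks and 0.42 or less in all 3 libraries of 17 weeks. It was kept too, but passed the filter through 8 weeks alone, which fixed that its groups did not overlap.

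**Figure D2:**
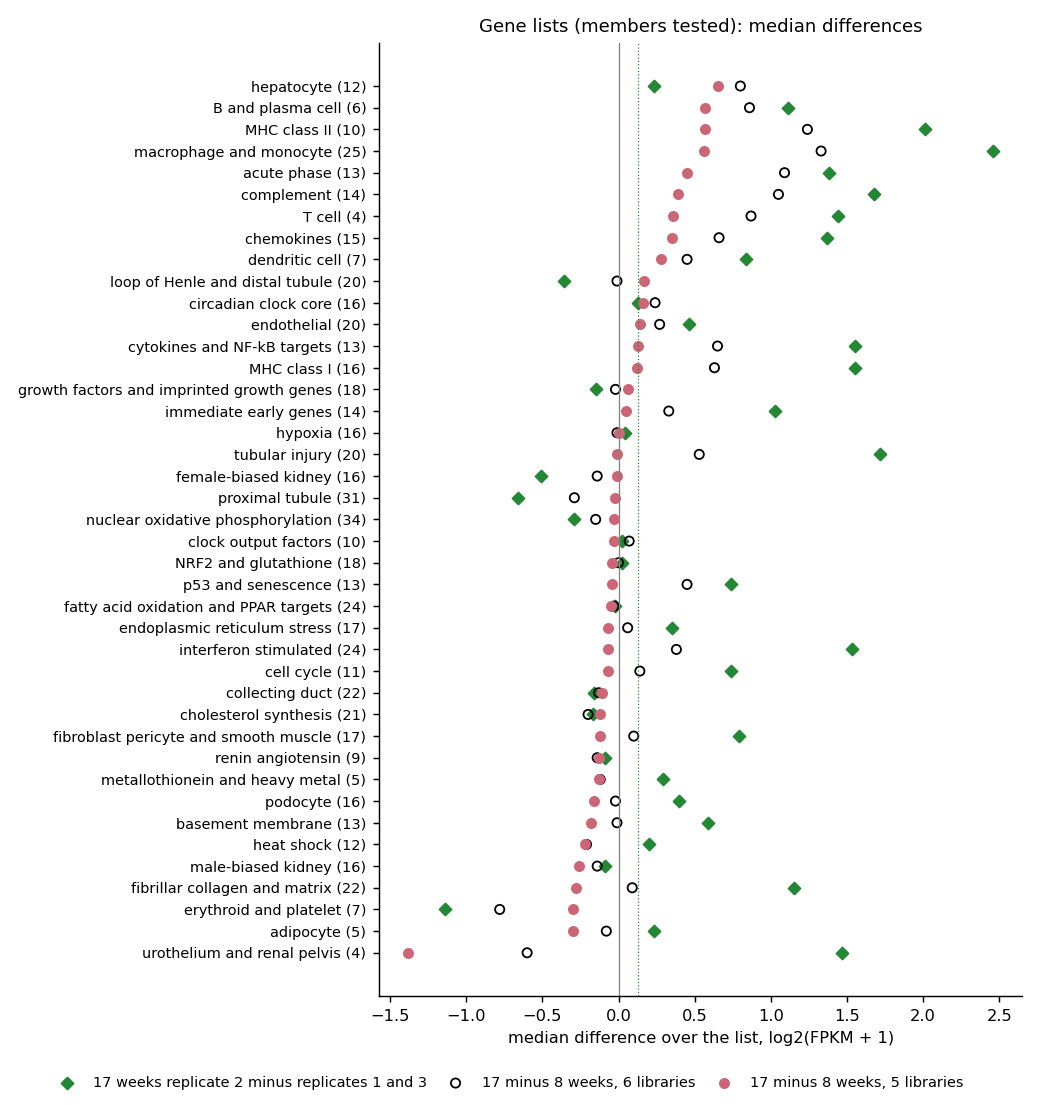
Median difference over each gene list, on the log2(FPKM + 1) scale, for lists with at least 4 tested members (number in brackets). Filled circles are 17 minus 8 weeks with 5 libraries, open circles the same with 6 libraries and diamonds replicate 2 of 17 weeks minus its 2 partners. The dotted line is the median of the diamonds' measure over all genes, 0.13. Macrophage and MHC class II lists lie to the right in all 3 measures, and the matrix list is negative with 5 libraries and positive in the other 2.

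Genes of macrophages and of antigen presentation on MHC class II rose together with 5 libraries. Of the 30 macrophage and monocyte genes 25 were tested. Of these 19 rose and none fell, against 4.16% and 4.42% of all genes. Without Clec7a, which passed the filter through 17 weeks alone, 18 rose. The median difference was 0.56, against -0.02 over all genes. Of the 12 MHC class II genes 10 were tested, and 7 rose and none fell, with a median of 0.57. The 8-week and 17-week libraries did not overlap, replicate 2 included, in 24 of the 25 and in 10 of the 10. Of all genes 13.2% were higher without overlap. For 3 of the 25 and 1 of the 10 the filter fixed this, since they reached 1 FPKM at 17 weeks alone. Of all genes 70 of 12388 passed the filter so. The counts and medians here include these members. With all 6 libraries no member of either list passed in limma (8 and 4 at an unadjusted p under 0.05), and the medians were 1.33 and 1.24. Lists share members: Ctss is in both, and C1qa, C1qb and C1qc are in the complement list too. In whole kidney, more cells of a type and more RNA per cell cannot be told apart.

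The promoters of MHC class II genes are known for a shared module of which the Y box, bound by NF-Y, is the last element. Its core GATTGG was searched on both strands in the 250 bases before to 50 after each gene's start in RefSeq (GRCm38.p6). It was in 16.1% of 32851 promoters. The 7 tested MHC class II genes with a promoter in the table have 8 promoters, so genes and promoters are unlike measures. Of the 7 genes 6 had the core in at least 1 promoter, H2-DMa at 1 start and not at its other. The 150 bases before the start of 3 of these genes are shown, 5′ to 3′ on the gene's strand, with matches in capitals; CCAATC is the same core on the other strand. The intervals are chr17:34287824-34287973 on the minus strand, chr17:34305717-34305866 on the plus strand and chr17:34153041-34153190 on the plus strand. A match is a run of letters, not a measured site.
H2-Aa: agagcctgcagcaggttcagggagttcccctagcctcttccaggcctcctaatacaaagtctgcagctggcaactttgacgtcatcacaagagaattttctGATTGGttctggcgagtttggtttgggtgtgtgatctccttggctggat
H2-Eb1: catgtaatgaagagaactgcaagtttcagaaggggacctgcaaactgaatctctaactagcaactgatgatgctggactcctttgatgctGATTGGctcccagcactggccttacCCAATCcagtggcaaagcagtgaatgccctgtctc
H2-DMb1: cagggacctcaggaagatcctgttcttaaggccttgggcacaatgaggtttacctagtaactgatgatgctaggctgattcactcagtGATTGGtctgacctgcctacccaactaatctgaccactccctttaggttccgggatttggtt

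H2-Aa, the alpha chain of the I-A molecule, read 95.58, 92.33 and 90.49 FPKM at 8 weeks and 153.9 and 150.42 at 17 weeks, with 648.28 in replicate 2. The difference was 0.71 with 5 libraries (SE 0.05, adjusted p = 0.000908) and 1.40 with 6 (SE 0.56, adjusted p = 0.348). H2-Ab1, its beta chain, read 86.12, 83.05 and 75.16 FPKM and then 138.73 and 143.45, with 548.62 in replicate 2 (0.79, adjusted p = 0.00147). H2-Eb1, the beta chain of the I-E molecule, read 62.86, 57.46 and 57.28 FPKM and then 97.93 and 93.29, with 403.03 in replicate 2 (0.68, adjusted p = 0.00192). In each gene the 2 partners were alike, all 3 libraries of 17 weeks were above all of 8 weeks, and replicate 2 was far above its partners. The invariant chain Cd74 rose by 0.63 (adjusted p = 0.00213) and Ctss, the protease that degrades it, by 0.71 (adjusted p = 0.00138). All 5 calls were kept, and H2 genes share sequence with relatives, so the split of reads among them is uncertain. The list's count was 5 without replicate 1 or 3 of 17 weeks and 0 with all 4 groups fitted together.

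Lyz2, the lysozyme of macrophages and neutrophils, had the largest rise of the macrophage list. Lyz2 (chr10:117277541-117282272) read 17.21, 15.88 and 19.06 FPKM at 8 weeks and 47.27 and 55.81 at 17 weeks, with 786.13 in replicate 2. The difference was 1.51 with 5 libraries (SE 0.09, adjusted p = 0.000846, kept) and 2.82 with 6 (SE 1.04, adjusted p = 0.323). Its neighbour and close copy Lyz1 read 1.63, 1.89 and 2.98 FPKM, then 5.5 and 5.06, and 147.56 in replicate 2, and reads of the pair may have been split. Ccr2, the receptor that brings monocytes into tissue, went from 1.27, 1.49 and 1.47 FPKM to 3.49 and 2.8, with 9.41 in replicate 2 (0.78, adjusted p = 0.00662), and Cd14, the lipopolysaccharide co-receptor, from between 3.78 and 4.42 to 7.09 and 7.89, with 45.14 in replicate 2 (0.75, adjusted p = 0.00363). Lyz1, Ccr2 and Cd14 were lost (adjusted p up to 0.147, 0.0831 and 0.0533). Of the 19 that rose, 7 were kept. Of the 25 tested, 3 were higher past the threshold with all 4 groups fitted together. The summed FPKM of the macrophage markers was 541 to 564 at 8 weeks, 820 and 909 in the partners and 3610 in replicate 2.

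Complement genes rose with 5 libraries, in 10 of 14 tested (17 listed), against 4.16% of all genes. Of the 10, C4b and C3ar1 passed the filter through 17 weeks alone and 8 did not. Cd55, an inhibitor of complement on the cell surface, fell, and the median was 0.39. The 3 chains of C1q, the recognition unit of the classical pathway that macrophages make, moved together. C1qb read 19.94, 18.72 and 19.19 FPKM at 8 weeks and 29.48 and 31.5 at 17 weeks, with 213.16 in replicate 2 (0.63, SE 0.06, adjusted p = 0.00213). C1qa rose by 0.65 and C1qc by 0.56, and all 3 chains were kept. C4b, the next component of that pathway, read 0.7, 0.97 and 0.72 FPKM and then 2.04 and 2.42, with 19.89 in replicate 2 (0.85, adjusted p = 0.00636, lost at up to 0.0844). Cfi, the protease that cuts C3b and C4b, read 4.85, 4.58 and 4.07 FPKM and then 9.38 and 8.12, with 28.51 in replicate 2 (0.83, adjusted p = 0.00339, kept). C3 itself, the central component, read 10.46, 10.83 and 9.42 FPKM, then 10.56 and 13.04, and 234.46 in replicate 2, and did not pass (0.18, adjusted p = 0.273). With all 4 groups fitted together 2 members of the list were higher and 1 lower past the threshold.

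Jchain and Mzb1, genes of plasma cells, rose as well. Jchain (chr5:88519809-88527897), the chain that joins IgA and IgM into polymers, read 3.26, 2.71 and 4.87 FPKM at 8 weeks and 32.0 and 27.11 at 17 weeks, with 98.21 in replicate 2. With 5 libraries its difference, 2.75 (SE 0.20, adjusted p = 0.00293, kept), was the largest rise, and with 6 it was 3.32 (SE 0.48, adjusted p = 0.0739). Mzb1, a chaperone of antibody-secreting cells, read 1.39, 2.04 and 1.65 FPKM and then 5.15 and 4.17, with 11.14 in replicate 2 (1.07, adjusted p = 0.004), and Cd79a, a chain of the B cell receptor, read 0.54, 0.53 and 0.71 FPKM and then 1.31 and 1.91, with 3.81 in replicate 2 (0.70, adjusted p = 0.0192). Mzb1 and Cd79a were lost (adjusted p up to 0.0541 and 0.169). Of the list's 17 genes 6 were tested and none fell, and Cd79a passed the filter through 17 weeks alone. Of 24 T cell genes found 4 reached the filter, and Cd3g rose from 0.47, 0.69 and 0.81 FPKM to 1.98 and 2.04, with 7.27 in replicate 2, and Cd4 from 0.61, 0.44 and 0.6 FPKM to 1.02 and 1.19, with 5.5 in replicate 2; both passed the filter through 17 weeks alone, and both were lost. Among 7 tested dendritic cell genes Itgax and Irf8 rose and were lost, as did Clec9a, which passed the filter through 17 weeks alone. In comparison, 4.16% of all genes rose and 4.42% fell with 5 libraries.

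**Figure D3:**
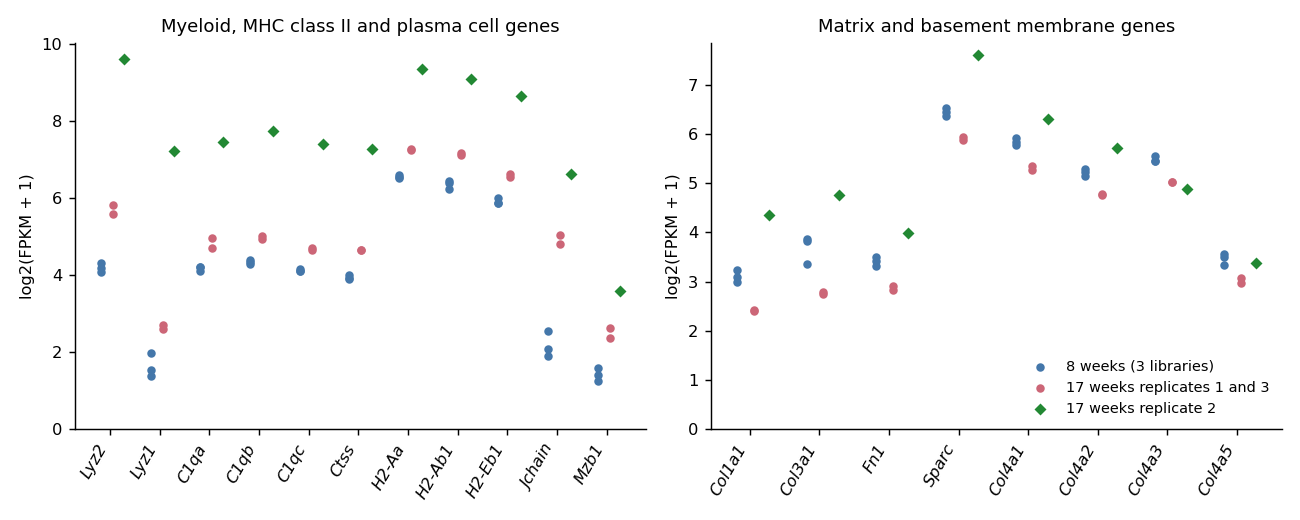
Expression as log2(FPKM + 1) of myeloid, MHC class II and plasma cell genes (left) and of matrix and basement membrane genes (right), with each point a library. In the left panel replicates 1 and 3 of 17 weeks lie above the 3 libraries of 8 weeks and replicate 2 lies higher still, while on the right the partners lie below 8 weeks and replicate 2 lies above them for Col1a1, Col3a1, Fn1, Sparc, Col4a1 and Col4a2.

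Lists of inflammatory signalling had medians from -0.07 to 0.35, and no test compared them with the lists above. With replicate 2 included, 9 of 16 MHC class I, 9 of 15 chemokine and 7 of 13 cytokine genes were higher without overlap. Of interferon-stimulated genes 1 of 24 was, and of all genes 13.2%. For 3 of the chemokines the filter fixed this. In limma with 5 libraries 9, 7 and 6 of the first 3 lists had an unadjusted p under 0.05, against 26.4% of all genes. Of 24 interferon-stimulated genes tested none rose in limma, where 4.16% of all genes did, and Gbp3, a guanylate-binding protein, fell (-0.53, adjusted p = 0.00901, lost), with a median of -0.07 and 2 members at an unadjusted p under 0.05 in either direction. Of 16 MHC class I genes H2-D1, H2-K1, H2-T23 and Tap2 rose, by 0.24 to 0.31, and none was kept. Of 15 chemokines, with a median of 0.35, Cxcl13, which draws B cells, and Ccl6 rose, the first having passed the filter through 17 weeks alone, and of 13 cytokines and NF-kB targets Icam1, a leukocyte adhesion molecule, and the alarmin Il33; all 4 were lost. Cxcl13 read 0.31, 0.1 and 0.34 FPKM at 8 weeks and 1.57 and 1.17 at 17 weeks, with 44.33 in replicate 2. The tubular injury list had a median of -0.01, with 2 of 20 higher: Cp, the copper-carrying ferroxidase ceruloplasmin, and Serpina10, both lost. Its leading marker Lcn2 read 1.26, 4.41 and 5.55 FPKM at 8 weeks and 1.83 and 3.04 in the partners (-0.35, adjusted p = 0.747), and Havcr1, which marks injured proximal tubule, read 0.33 to 0.47 FPKM in these 5 libraries and was not tested.

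Acute phase and hepatocyte-type genes rose in part. Of 13 acute phase genes tested 7 rose and none fell, with a median of 0.45, and of 12 hepatocyte markers 4 rose, against 4.16% of all genes; Fga, Fgb and Fgg, the 3 chains of fibrinogen, are in both lists. Fga read 9.61, 10.47 and 10.4 FPKM at 8 weeks and 16.68 and 19.36 at 17 weeks, with 40.91 in replicate 2 (0.77, adjusted p = 0.0028, kept). Fgb read 1.61, 2.75 and 1.7 FPKM and then 4.53 and 8.06, with 7.53 in replicate 2 (1.25, adjusted p = 0.0465, lost at up to 0.142). Apob, the protein of triglyceride-rich lipoproteins, read 12.42, 13.31 and 11.12 FPKM and then 28.28 and 24.58, with 16.48 in replicate 2 (1.05, adjusted p = 0.00142, kept). Albumin, Alb, read 6.95, 6.85 and 5.73 FPKM at 8 weeks and 11.83, 7.39 and 60.44 at 17 weeks, so replicate 3 alone was high, and its difference did not pass (1.91, adjusted p = 0.254). Apoa1 had the same pattern, at 11.78 FPKM in replicate 3 and 0.79 to 1.39 elsewhere. The summed hepatocyte markers were 169 to 186 FPKM at 8 weeks, 177 and 310 in replicates 1 and 3 of 17 weeks and 273 in replicate 2, and their part in these rises was not tested. The counts of acute phase genes that rose were 2 without replicate 1 and 1 without replicate 3 of 17 weeks.

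Collagen and other matrix genes fell with 5 libraries. Of 22 tested (24 listed) 6 fell and none rose, against 4.42% and 4.16% of all genes, with a median of -0.28. Of the 22, 14 did not overlap downward, against 26.4% of all genes. Col3a1, the fibrillar collagen of soft tissue, read 9.24, 13.52 and 13.26 FPKM at 8 weeks and 5.9 and 5.75 at 17 weeks, with 25.96 in replicate 2 (-0.91, SE 0.15, adjusted p = 0.018). Col1a1, the main chain of type I collagen, read 6.96, 8.36 and 7.49 FPKM and then 4.26 and 4.37, with 19.48 in replicate 2 (-0.69, SE 0.08, adjusted p = 0.00432). Sparc, which binds collagen as it is laid down, read 81.65, 86.18 and 90.9 FPKM and then 57.98 and 60.17, with 192.29 in replicate 2 (-0.54, adjusted p = 0.00349), and fibronectin, Fn1, fell by 0.53 on the log2 scale. In these 4 genes replicate 2 was higher than all other 5 libraries, and with 6 libraries the differences were -0.25, -0.04, 0.03 and -0.16, with adjusted p-values from 0.822 to 0.985. No matrix call was kept, and with all 4 groups fitted together 0 of the 22 tested passed. Dcn and Lum, small proteoglycans of the same list, had differences of 0.39 and 0.54 with 5 libraries without passing. Markers of fibroblasts, pericytes and smooth muscle, which share 4 tested genes with this list, had a median of -0.12, with 2 of 17 lower. These 2 were Col1a1, already counted in the matrix list, and Akr1b7, which is also in the adrenal list.

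Of 13 basement membrane genes 4 fell and none rose, against 4.42% and 4.16% of all genes. The 4 were all type IV collagens, which form the sheet under tubules and glomeruli. Col4a1 read 53.5, 56.0 and 59.51 FPKM at 8 weeks and 39.49 and 37.8 at 17 weeks, with 77.63 in replicate 2 (-0.53, SE 0.06, adjusted p = 0.00364). Col4a2 read 34.59, 36.42 and 38.33 FPKM and then 26.66 and 26.27, with 51.48 in replicate 2 (-0.45, adjusted p = 0.00596). Col4a3, of the mature glomerular membrane, read 42.5, 42.54 and 46.18 FPKM and then 31.48 and 31.69, with 28.42 in replicate 2 (-0.46, adjusted p = 0.00479), and Col4a5 fell by 0.45 on the log2 scale (adjusted p = 0.0206). Replicate 2 was thus high for the first pair, low for Col4a3, and at 9.35 FPKM within the 8-week range of 9.06 to 10.77 for Col4a5. All 4 were lost (adjusted p up to 0.175). Laminin genes Lamb1 and Lamb2 had differences of 0.13 and 0.14 without passing.

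The core clock genes moved in both directions. Of 16 tested (17 found) 5 rose and 2 fell with 5 libraries, against 4.16% and 4.42% of all genes. Cry1 (chr10:85131700-85185054), the partner of Cry2, read 1.28, 1.14 and 1.49 FPKM at 8 weeks and 3.07 and 3.04 at 17 weeks, with 6.98 in replicate 2 (0.82, SE 0.10, adjusted p = 0.00429, lost at up to 0.059). Nr1d1 (chr11:98767932-98775377), which encodes the repressor REV-ERB alpha, read 56.33, 58.92 and 59.54 FPKM and then 37.12 and 36.43, with 22.47 in replicate 2 (-0.65, SE 0.05, adjusted p = 0.00116, kept). Replicate 2 thus went past its partners, upward for Cry1 and downward for Nr1d1. Per2, a repressor of the loop, rose from 9.24, 8.16 and 8.1 FPKM to 11.41 and 11.65 (0.40, adjusted p = 0.0188), and Per1 fell from between 23.45 and 24.48 FPKM to 20.34 and 19.96 (-0.24, adjusted p = 0.0338); both were lost. Bmal1, listed as Arntl, read 1.64, 3.16 and 2.19 FPKM at 8 weeks and 3.01, 3.65 and 2.66 at 17 weeks, overlapped and did not pass (0.23, adjusted p = 0.467). Its output factor Dbp read 101.74, 75.86 and 81.8 FPKM and then 67.22, 44.24 and 63.38 (-0.39, adjusted p = 0.091).

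Among output factors Tef, a PAR bZIP factor, rose and Lpin1, a phosphatidate phosphatase, fell, and both were lost. Of the 7 core calls, those of Cry2 and Nr1d1 were among the kept; over curated NM mRNAs only, none of the 5 rises passed. The E-box CACGTG, the sequence that CLOCK and BMAL1 bind, reads the same on both strands and was in 7.15% of the 32851 promoters. The 12 core clock genes with a promoter in the table have 19 promoters, so genes and promoters are again unlike measures. Of the 12 genes 4 had the E-box in at least 1 promoter, Bhlhe41, Ciart, Cry1 and Per1. The 150 bases before the start of Cry1, the largest of the calls among these 4, follow from chr10:85185055-85185204 on the minus strand, with the match in capitals.
Cry1: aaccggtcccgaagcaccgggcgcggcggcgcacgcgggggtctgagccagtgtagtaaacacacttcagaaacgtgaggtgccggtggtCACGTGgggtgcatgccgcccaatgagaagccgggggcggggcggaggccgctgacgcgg

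**Figure D4:**
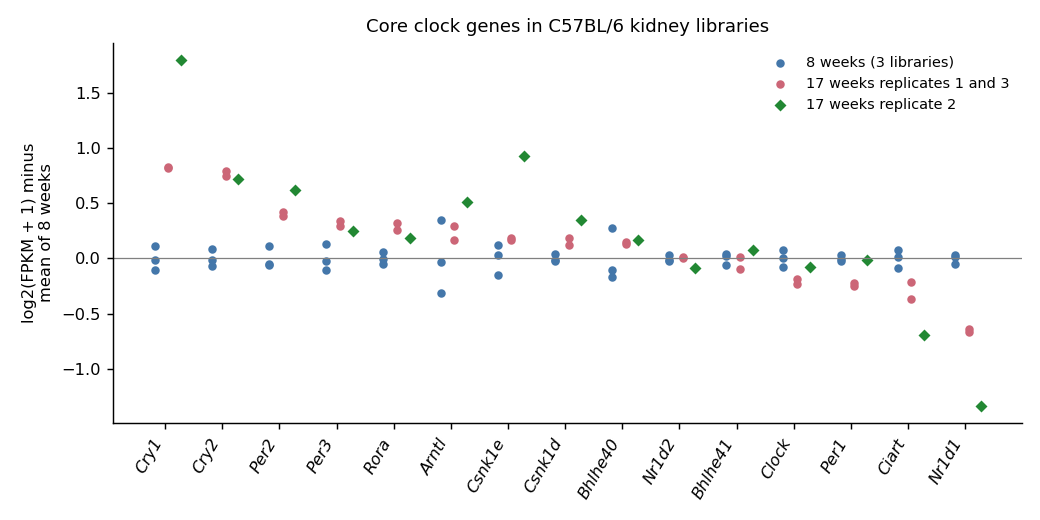
Core clock genes (15 of the 16 tested) as log2(FPKM + 1) minus the mean of the 3 libraries of 8 weeks, with each point a library and genes in the order of the difference in replicates 1 and 3 of 17 weeks. Cry1 and Cry2 lie above the 8-week libraries in all 3 libraries of 17 weeks and Nr1d1 lies below them, with replicate 2 farther out for Cry1 and Nr1d1.

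Of 12 heat shock genes tested 4 fell and none rose, against 4.42% and 4.16% of all genes. The difference was negative in 11, and in 56.2% of all genes. Dnajb1, the co-chaperone of HSP70, read 20.16, 20.98 and 20.44 FPKM at 8 weeks and 13.52 and 13.47 at 17 weeks, with 15.35 in replicate 2 (-0.57, SE 0.05, adjusted p = 0.00231). Dnaja1, a second co-chaperone, read 102.87, 105.65 and 108.87 FPKM and then 72.86 and 75.52, with 76.82 in replicate 2 (-0.51, adjusted p = 0.00284). Both were kept, with replicate 2 near its partners, and their adjusted p-values with 6 libraries were 0.0714 and 0.0583. Hsph1 and Hspd1, further chaperones, fell by 0.42 and 0.22 on the log2 scale and were lost, and Hspb1 alone had a positive difference (0.44, adjusted p = 0.318). Of 14 immediate early genes Dusp1, a phosphatase that switches off MAP kinases, rose from 29.3, 28.39 and 29.57 FPKM to 42.7 and 42.48, with 39.17 in replicate 2 (0.54, adjusted p = 0.00231, kept). Myc rose and Jun fell, both lost. In limma none of 17 endoplasmic reticulum stress genes passed with 5 libraries (3 at an unadjusted p under 0.05) and none of 11 cell cycle genes (1).

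Steroid-regulated kidney genes were called in both directions. Of 16 male-biased genes tested 2 rose and 7 fell (6 without Acsm3, which passed the filter through 8 weeks alone), and of 16 female-biased genes 5 rose and 4 fell, Akr1c18 among the latter; of all genes 4.16% rose and 4.42% fell. Kap, the androgen-regulated kidney protein of the proximal tubule, read 20527.66, 20106.13 and 22501.87 FPKM at 8 weeks and 15756.23 and 16067.82 at 17 weeks, with 8272.22 in replicate 2 (-0.40, adjusted p = 0.0183, lost at up to 0.19). Hsd3b2, a steroid dehydrogenase, read 40.29, 42.56 and 33.16 FPKM and then 20.15 and 18.55, with 11.94 in replicate 2 (-0.96, adjusted p = 0.00374, lost at 0.0533). Cyp4a12a, a male-biased fatty acid hydroxylase with close copies, read 1.21, 1.28 and 0.87 FPKM and then 3.29 and 2.9, with 3.46 in replicate 2 (0.95, adjusted p = 0.00429, lost at 0.0652). Of the female-biased genes, Cyp2a4 rose from 168.04, 146.89 and 148.52 FPKM to 229.17 and 245.47 (0.62, adjusted p = 0.004), and Abcc3, an exporter of conjugates, fell from 44.15, 37.62 and 49.08 FPKM to 25.92 and 27.34 (-0.68, adjusted p = 0.0118); both were lost. Without replicate 1 of 17 weeks the 4 counts, in the order given, were 0, 2, 1 and 1.

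Of 31 proximal tubule genes 3 rose and 4 fell, against 4.16% and 4.42% of all genes, with a median of -0.02, the same as over all genes. Slc22a6, the organic anion transporter OAT1, fell from 171.55, 147.52 and 131.11 FPKM to 91.11 and 89.95, with 81.8 in replicate 2 (-0.71, adjusted p = 0.0104), and Slc22a12, the urate transporter URAT1, from 670.02, 597.7 and 557.79 FPKM to 412.93 and 411.31, with 319.78 in replicate 2 (-0.56, adjusted p = 0.00798). G6pc, the glucose-6-phosphatase of gluconeogenesis, rose from 271.72, 254.78 and 253.55 FPKM to 414.48 and 352.95, with 215.33 in replicate 2 (0.56, adjusted p = 0.00726). All 3 were lost (adjusted p up to 0.1, 0.09 and 0.0739). In the loop of Henle and distal tubule 5 of 20 rose and 1 fell. Trpm6, the magnesium channel of the distal convoluted tubule, read 3.71, 4.27 and 3.85 FPKM at 8 weeks and 7.45 and 7.42 at 17 weeks, with 2.76 in replicate 2 (0.77, SE 0.08, adjusted p = 0.00269, kept). Slc12a3, the thiazide-sensitive cotransporter of the same segment, read 417.44, 394.05 and 353.78 FPKM and then 555.92 and 560.68, with 276.45 in replicate 2 (0.53, adjusted p = 0.00798, lost at up to 0.0897). For both genes replicate 2 was the lowest of the 6 libraries, and with 6 libraries neither passed.

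Of 22 collecting duct genes 4 fell, led by Foxi1, the factor that specifies intercalated cells, from 38.59, 31.56 and 30.46 FPKM to 20.9 and 19.75, with 19.88 in replicate 2 (-0.69, adjusted p = 0.00922, lost at up to 0.0975). Of 16 podocyte genes 3 fell, by 0.23 to 0.32 on the log2 scale, Clic5 and Enpep among them. Of 20 endothelial genes 4 rose, Kdr, Flt1, Ehd3 and Egfl7, by 0.26 to 0.40. All 7 were lost. Beside the counts of these lists, 4.16% of all genes rose and 4.42% fell. Esm1, an endothelial proteoglycan, read 14.15, 13.37 and 13.09 FPKM at 8 weeks and 20.84 and 20.04 at 17 weeks, with 6.29 in replicate 2 (0.56, SE 0.06, adjusted p = 0.00284, kept). In the renin-angiotensin list 2 of 9 rose and 2 fell: Ace, which makes angiotensin II, rose by 0.54 and its substrate source Agt by 0.26, while Enpep, which degrades angiotensin II, fell by 0.32 on the log2 scale, and all 4 were lost (adjusted p up to 0.218). Akr1b7, the tested member of the adrenal list, fell from between 3.51 and 4.59 FPKM to 1.7 and 1.82, with 0.78 in replicate 2 (-0.86, adjusted p = 0.00432, lost at 0.0587); the other 13 adrenal genes stayed under the filter. Ly6g, tested in the neutrophil list of 17, fell from between 4.35 and 5.1 FPKM to 2.72 and 2.4 (-0.66, adjusted p = 0.00689, lost). In limma no member passed with 5 libraries among 7 erythroid, 4 urothelial and 2 cytotoxic cell genes, and 0 did at an unadjusted p under 0.05.

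In limma none of 34 nuclear subunits of oxidative phosphorylation passed with 5 libraries (2 at an unadjusted p under 0.05), with a median of -0.03. Of 24 genes of fatty acid oxidation and PPAR targets 3 rose and 3 fell, against 4.16% and 4.42% of all genes. Acadm, the medium-chain dehydrogenase, fell from 717.16, 660.54 and 767.83 FPKM to 450.35 and 469.52, with 310.62 in replicate 2 (-0.63, adjusted p = 0.00366). Its call was lost without replicate 1 of 17 weeks (0.059). Of 21 cholesterol synthesis genes 4 fell and 1 rose, against 4.42% and 4.16% of all genes, with a median of -0.12. In 10 of them the groups did not overlap downward, against 26.4% of all genes. Hmgcs1, Sqle and Msmo1 fell by 0.41 to 0.53 on the log2 scale, and Insig1, a brake on that pathway, rose. None of these 4 named genes was kept. Lpl, the lipase that takes fatty acids from lipoproteins, fell from 183.32, 170.14 and 192.27 FPKM to 98.28 and 98.61, with 62.69 in replicate 2 (-0.88, SE 0.06, adjusted p = 0.000908, kept). Lipe, a hormone-sensitive lipase, rose by 0.45 and was lost.

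Among stress-response lists, Sesn2, a sestrin that restrains mTORC1, was the 1 of 13 p53 and senescence genes that rose, from 18.26, 18.46 and 15.37 FPKM to 33.61 and 31.54, with 26.18 in replicate 2 (0.87, SE 0.08, adjusted p = 0.00241, kept). Of 18 NRF2 and glutathione genes 3 rose and 1 fell, where 4.16% and 4.42% of all genes did. Osgin1, Gsta4 and Gsta3 rose by 0.32 to 0.52, and Gclc, the catalytic subunit of glutathione synthesis, fell by 0.77 on the log2 scale. Of 16 hypoxia genes Ndrg1, Car9 and Egln3 rose by 0.51 to 0.67. Of 5 metallothionein and metal genes Mt1 rose by 0.34 (adjusted p = 0.0495). These 8 genes were lost, and over curated NM mRNAs only the differences of Car9 and Gclc changed sign, to -0.02 and 0.39.

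Replicate 2 of 17 weeks is described against its 2 partners without a test, since it is 1 library. It was above all other 5 libraries in 5999 genes (48.4%) and below them in 2667 (21.5%), and more than 2-fold above its partners in 721 (5.82%) and below in 60 (0.484%). Lcn2 stood at 180.37 FPKM against 1.83 and 3.04 in its partners, and Havcr1 at 37.41 against 0.33 and 0.39. All 20 tested tubular injury genes were above the other 5 libraries, with a median difference of 1.72, as were all 24 interferon-stimulated, 25 macrophage, 16 MHC class I, 14 complement and 10 MHC class II genes, with medians of 1.53, 2.46, 1.55, 1.68 and 2.01. The chemokines Ccl8, Ccl2 and Cxcl13 read 75.75, 25.99 and 44.33 FPKM, against 2.08 or less in its partners. Slpi, a protease inhibitor of mucosal surfaces and leukocytes, read 62.84 FPKM, and Vcam1, an adhesion molecule, 60.21 against 5.62 and 5.24.

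Several tubule genes were lower in that library. Pvalb, the calcium-binding parvalbumin of the distal convoluted tubule, read 4.06 FPKM against 33.0 and 36.56 in its partners, and Dnase1, a secreted nuclease of kidney tubules, 85.04 against 519.53 and 476.9. Hpd, of tyrosine breakdown, read 68.18 against 245.6 and 236.4, and Bhmt, which remethylates homocysteine, 4.07 against 17.08 and 18.61. Of 31 proximal tubule genes 29 were below the other 5 libraries, with a median of -0.66, and of 34 oxidative phosphorylation genes 33 were. In the later segments 11 of 20 loop and distal genes were below the other 5 libraries and 2 above, with a median of -0.36. Of 22 collecting duct genes 12 were below and 5 above, with a median of -0.16. Of all genes 21.5% were below and 48.4% above, with a median of 0.13. Kl, the anti-ageing FGF23 co-receptor Klotho, read 65.83 FPKM against 161.06 to 188.74. Summed neutrophil markers were 217 FPKM, against 8.02 to 13.3 in the other 5 libraries, with 9 of the 17 under 1 FPKM in all 6. Most of that sum was Lcn2, at 180.37 FPKM, which is also in the tubular injury list. Ly6g of the neutrophil list was lowest in replicate 2, at 1.42 FPKM against 2.4 to 5.1. Summed T cell markers were 64.5 FPKM against 8.92 to 16.7. Summed urothelial markers were 37.9 FPKM in replicate 2 and 52.7 in replicate 2 of 8 weeks, against 2.05 to 16.5 in the others; their part was not tested. Psca, itself a member of the urothelial list and a large part of these 2 sums, read 26.29 and 20.21 FPKM there and 0.49 to 3.64 elsewhere. Igfbp2, which is not in that list, read 41.38 and 16.36 FPKM in these 2 libraries and 0.7 to 1.86 elsewhere.

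Whether the age difference differed between the strains was tested as MRL/lpr age difference minus C57BL/6 age difference, over 12931 genes; it uses the C57BL/6 libraries already described. With all 12 libraries 7 genes passed (0.0541%; 1331, or 10.3%, at an unadjusted p under 0.05), 5 more positive (0.0387%) and 2 more negative (0.0155%) in MRL/lpr. Without replicate 2 of C57BL/6 17 weeks 311 passed (2.41%; 2785, or 21.5%, at an unadjusted p under 0.05), 218 more positive (1.69%) and 93 more negative (0.719%) in MRL/lpr. With median-of-ratios scaling the 11 libraries gave 117 and 190 instead. Cyp27b1 had the most negative term past the threshold in both fits, -2.54 (SE 0.25, adjusted p = 0.00444) without that library and -2.54 (SE 0.23, adjusted p = 0.00534) with it. In MRL/lpr it read 2.06, 2.0 and 2.21 FPKM at 8 weeks and 1.63, 1.08 and 1.5 at 17 weeks. All 3 C57BL/6 libraries of 17 weeks, at 8.49 to 11.96, were above every other library of the series. Eef1akmt3, a lysine methyltransferase gene that lies beside it (chr10:127032806-127042014), rose in C57BL/6 from 1.67, 1.35 and 0.85 FPKM to 3.16 and 3.43, with 2.4 in replicate 2, and had a term of -1.69 without that library (SE 0.22, adjusted p = 0.00825).

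Without replicate 2, other named or listed genes that changed with age in C57BL/6 and whose difference between strains passed were Tmprss6, Plekhb1, Esm1, H4c8, Fgb, Osgin1, Hao2, Rnf24, Ccl6, Cxcl13, Ucp2, Cd55, Apoe and Clec7a. Tmprss6 read 1.33, 0.58 and 1.15 FPKM at 8 weeks and 2.3, 1.22 and 1.5 at 17 weeks in MRL/lpr (term -1.67, adjusted p = 0.02). Plekhb1 read 31.71, 33.8 and 31.27 FPKM and then 35.12, 36.61 and 40.56 in MRL/lpr, above all C57BL/6 libraries (term -0.74, adjusted p = 0.00715). Rnf24 read 25.39, 17.24 and 35.39 FPKM and then 55.92, 41.14 and 17.64 in MRL/lpr, with wide spread (term 3.08, SE 0.60, adjusted p = 0.0399). Esm1 read 10.81, 12.55 and 13.3 FPKM and then 7.69, 6.99 and 10.12 in MRL/lpr, opposite to C57BL/6 without replicate 2 (term -1.08, adjusted p = 0.0162). Mylip, a ubiquitin ligase that degrades the LDL receptor, overlapped between the ages in C57BL/6 (23.88 to 27.28 FPKM and 21.03 to 24.93) and rose in MRL/lpr from 15.26, 16.5 and 15.56 FPKM to 27.03, 31.16 and 31.72 (term 1.08, adjusted p = 0.00444; 0.0141 with all 12 libraries).

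The term of Cyp27b1 passed under every alternative run with 11 and with 12 libraries. Without replicate 1 of C57BL/6 17 weeks the terms of Tmprss6, Plekhb1, Rnf24, Esm1 and Eef1akmt3 were lost, and without replicate 3 those of Tmprss6, Rnf24, Esm1 and Eef1akmt3.

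In limma no MHC class II gene of 11 had a strain-by-age term past the threshold with 11 or 12 libraries (1 and 0 at an unadjusted p under 0.05), no core clock gene of 16 (2 and 2), and no matrix gene of 23 (3 and 0). Of 29 macrophage genes 4 were more positive in MRL/lpr with 11 libraries (18 at an unadjusted p under 0.05), with a median term of 0.94 against 0.07 over all genes. With 12 libraries 0 passed (0 at an unadjusted p under 0.05), and the median was 0.02. Beside these list counts, 2.41% of all genes passed with 11 libraries, 1.69% more positive in MRL/lpr, and 21.5% had an unadjusted p under 0.05. With 12 libraries the shares over all genes were 0.0541% and 10.3%. Jchain had a term of 0.40 (adjusted p = 0.901), Lyz2 of 0.96 (adjusted p = 0.153) and H2-Aa of 0.45 (adjusted p = 0.768) with 11 libraries. The term of Igf2 was -2.39 (adjusted p = 0.0516), with MRL/lpr at 0.98, 0.84 and 0.56 FPKM and then 4.96, 2.69 and 3.66. A term that misses the threshold does not show that the strains aged alike.

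**Figure D5:**
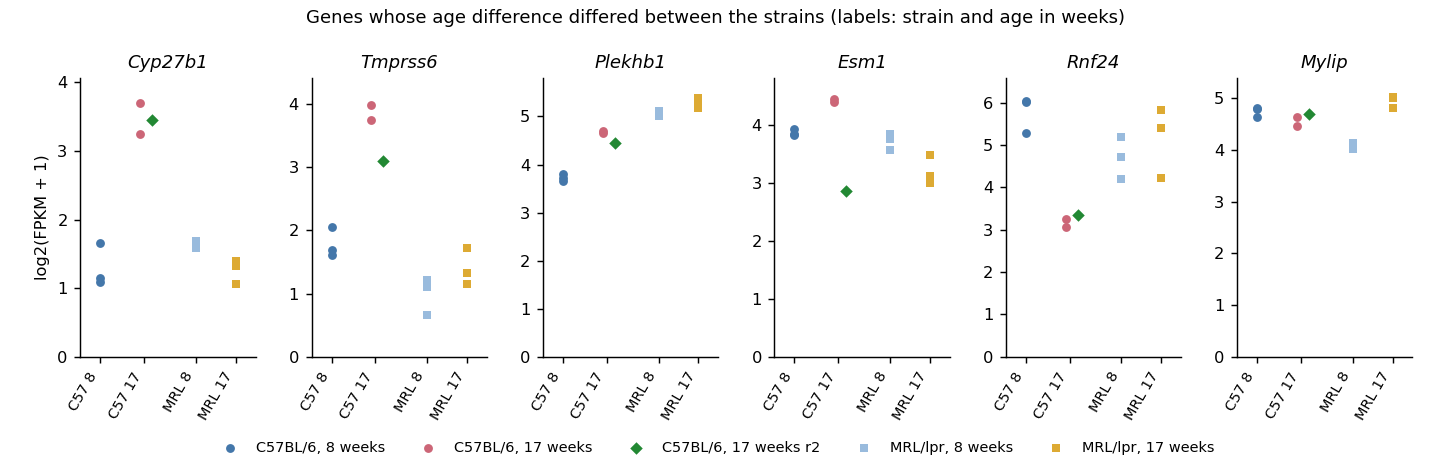
Expression as log2(FPKM + 1) in C57BL/6 and MRL/lpr kidneys at 8 and 17 weeks for 6 genes whose strain-by-age term passed without replicate 2 of C57BL/6 17 weeks, with each point a library and that library drawn as a diamond. Cyp27b1 and Tmprss6 are high only in the C57BL/6 libraries of 17 weeks, Rnf24 is low only there, and Mylip differs between ages in MRL/lpr.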

How the data were processed

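RNA-seq of kidney was deposited as 1 table of FPKM per mRNA for 12 libraries, 3 for each of 4 groups. Per the labels' protocols, RNA was extracted with TRIzol and made into mRNA libraries. Per the submitters' processing notes, Bowtie2, RSEM 1.3.1, DESeq2 1.34.0 and GRCm38.p6 were used; their roles are not given. The unit was taken from the values, and read counts could not be recovered from their steps, so depth is unknown and no count test was run.

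Here the authors' FPKM were summed over 72806 mRNA rows to 19034 genes (148 without a symbol), log2(FPKM + 1) was taken, genes at 1 FPKM in at least 3 of the 6 C57BL/6 libraries were kept, and limma 3.58.1 in R 4.3.3, with trend and robust moderation, was fitted to 6 libraries and, over the same genes, to 5. The strain-by-age term was fitted to 12 and 11 libraries. All tests were two-sided, and the steps were tested on simulated data. Lists are described by counts and medians, with no set test. Some genes that enter the counts are not reported here by name.

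The members and gene lists were chosen with earlier results of these data known. Named genes were the 10 largest called differences each way in each age fit with non-overlapping groups (predicted and ribosomal protein genes left out), up to 4 called members of each list, the genes in which replicate 2 of 17 weeks stood farthest from its partners, the 6 largest called strain-by-age terms each way, and 12 genes fixed by name. Marker levels, members that did not pass, and the listed genes that complete a count (such as Cd55, Apoe, Clec7a, Dcn, Lum, Lamb1, Lamb2, Hspb1) were chosen after their values were seen. Alternatives covered the pseudocount, low-value filter, scaling, moderation, library weights, curated mRNAs only, a minimum fold, a replicate block, all 4 groups fitted together and leaving out each library.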

Additional observations from a re-analysis of the deposited data

Results flagged for a closer look

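The results listed here were singled out because the age difference differed between MRL/lpr and C57BL/6 by the strain-by-age term itself (limma, adjusted over all genes tested). With 12 libraries 7 genes passed and without replicate 2 of C57BL/6 17 weeks 311 did. All terms below are without that library, as the MRL/lpr minus the C57BL/6 age difference in log2(FPKM + 1), and no explanation was tested.

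Terms more negative in MRL/lpr were -2.54 for Cyp27b1, -1.69 for Eef1akmt3, -1.67 for Tmprss6, -1.26 for Fgb, -1.17 for Sox18, -1.08 for Esm1, -0.74 for Plekhb1, -0.63 for Tent4a, -0.62 for Hao2 and -0.56 for Osgin1.

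Terms more positive in MRL/lpr were 3.4 for Chil1, 3.2 for Ccl8, 3.08 for Rnf24, 2.02 for Pla2g2d, 1.59 for Cxcl13 and for H4c8, 1.43 for Ccl6, 1.08 for Mylip, 0.77 for Hddc2 and for Sdc1, 0.74 for Relb and 0.66 for Ucp2. The seminal vesicle genes Svs2, Svs4 and Svs5 had terms of 1.53, 1.85 and 1.88, and were listed at 0 in every C57BL/6 library. The terms were tested for genes at 1 FPKM in at least 3 of the 12 libraries. The Svs genes and Chil1, at 0.04 to 0.32 FPKM in C57BL/6, passed this filter through MRL/lpr alone. Pla2g2d reached 1 FPKM in C57BL/6 only in replicate 2 of 17 weeks.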

How the results depend on the processing

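With 6 C57BL/6 libraries 14 genes passed; the count was 1 with no filter on low values, 35 with a filter of 5 FPKM, 9 with upper quartile scaling, 7 without trend and robust moderation, 2283 with library weights, 204 with all 4 groups fitted together, and 0 in limma with curated NM mRNAs only (1307 at an unadjusted p under 0.05) or a minimum fold of 1.2 (305). With 5 libraries 1063 passed; the count was 517 with no filter, 1660 with library weights, 174 with NM mRNAs only (110 higher, 64 lower), 72 with a minimum fold of 1.2 (43 and 29) and 392 with all 4 groups. The strain-by-age count of 7 was 4 and 15 with pseudocounts of 0.1 and 0.5, 12 with no filter, 4 with 1 FPKM in every library, 12 with every library scaled to the same total, 892 with library weights and 3 with a minimum fold of 1.2. Without replicate 2 of 17 weeks its 311 became 893 with library weights, 36 with NM mRNAs only and 14 with a minimum fold of 1.2. Leaving out 1 library gave 0 to 1063, 119 to 1146, 1 to 311 and 10 to 729 genes in these 4 comparisons. The causes were not tested.

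Same-numbered libraries deviated together with correlations of 0.264, 0.128 and 0.026, so the numbers were not taken to pair the samples. With a replicate block the 4 counts were 1, 750 (387 higher, 363 lower), 1 and 190.

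The difference of Lcn2 with 6 libraries changed sign with library weights (-0.244) and ranged from -0.35 to 2.651 when 1 library was left out, the lowest without replicate 2 of 17 weeks. With NM mRNAs only the 5-library differences of Car9, Ehhadh, Gclc, Hao2 and Tfcp2l1 changed sign, to -0.019, 0.055, 0.387, -0.126 and 0.33, as did the strain-by-age terms of Hao2 (0.13) and Relb (-0.296). Of the 148 named genes that passed with 5 libraries, 15 passed under every alternative that tested them and 41 in every fit that left out a library.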
